A study of Mus musculus with 5 samples.

Results

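The 10 genes described here are the imprinted growth genes Igf2, H19, Igf2r, Dlk1, Meg3, Peg3, Grb10, Cdkn1c, Plagl1 and Mest, followed through Ago HITS-CLIP of mouse liver. They were taken by symbol from the gene column of the deposited miRNA-target tables, and all 10 were found among the 21099 gene symbols of those tables. Ago HITS-CLIP uses ultraviolet light to fix RNA to the Argonaute (Ago) proteins, which carry miRNAs, and then sequences the RNA that is pulled down with Ago. Livers of C57BL/6 mice, C57BL/6J in the study's methods, were taken on the embryonic days that name the libraries (e12.5, e15.5, e18.5), at postnatal day 7 (P7) and from adults, and were irradiated 3 times at 254 nm with 0.2 J/cm2. All precipitations used antibodies to Ago2, joined by one to Ago1 for P7 and adult liver, so the antibody and the time after birth cannot be told apart. Each stage has 1 table, called a library here, with no labelled replicates, so no difference between stages could be tested against replicate error. Biological replicates of the Ago2 experiments are mentioned in the methods of the study, and its supplement counts another e18.5 replicate as a sample of its own. Whether a list of the e18.5 table described below is that replicate is not stated in the sources used here.

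Imprinted genes are read from the maternal or the paternal copy only, and many of them set the growth of the fetus. Igf2, a paternally expressed growth factor, is cleared by the receptor Igf2r, and its signal is dampened by the adaptor Grb10. H19 is a noncoding RNA of the maternal copy next to Igf2. Dlk1 and Meg3 are the paternal membrane protein and the maternal noncoding RNA of another shared domain, Cdkn1c is a cell cycle inhibitor, Peg3 and Plagl1 are zinc finger proteins, and Mest belongs to the hydrolases. Several of these genes also contain miRNA genes, whose products are loaded into Ago themselves, so clusters over those miRNA genes were counted apart.

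An entry of a table is a site, that is, a stretch of Ago-bound RNA that matches the seed (bases 2 to 8) of a miRNA, and sites are grouped into clusters of overlapping reads. A cluster carries the highest read number of its sites, and a gene's level is the sum over its clusters, in reads per 1000000 cluster reads of the library (RPM). Clusters with fewer than 5 reads or without a seed match are not in the tables, so a gene that is "not listed" has no level and no upper limit. In the e12.5 table the header of the read column speaks of the miRNA target, elsewhere of the peak, and values of e12.5 are set beside the others on the assumption that these are the same measure. Summed cluster reads were between 13008703 (e18.5) and 44867326 (e12.5). Each embryonic table consists of 2 lists of clusters that the labels do not explain; they were added, and their own values are given where a result turns on them. Intervals are exact 95% Clopper-Pearson intervals and cover counting error only.

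The 5 sites below are shown because, among sites of at least 7 matched bases for the 20 most read miRNAs of a library, they held the most reads in exons of the 10 genes, apart from a further site in H19 described with that gene. Each is the deposited target sequence, 5′ to 3′, with the bases counted as matched in capitals. Its coordinates (mm10, minus strand) span the positions the tables list for the match. An A opposite the first base of the miRNA is counted as matched whether or not it pairs. In the miR-136-5p site of H19, and in a miR-186-5p site described with that gene, it does not pair.
Igf2 5′UTR, miR-16-5p, chr7:142659330-142659336: gtccgccacctcgcTGCTGCTA
Igf2 3′UTR, miR-122-5p, chr7:142651501-142651507: gcgagccgtagcagcCACTCCA
Igf2 3′UTR, let-7 family, chr7:142651452-142651458: gggcggctggaggttTACCTCA
H19 exon, miR-136-5p, chr7:142576644-142576650: acatggtccggtgtgATGGAGA
Grb10 3′UTR, miR-26a-5p, chr11:11932872-11932878: agtccttcccattaTACTTGAA

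Of the abundant miRNAs that match them, 6 follow with the seed in capitals, as RefSeq gives them on GRCm38, and miR-122-5p, let-7b-5p and let-7f-5p are named only. miR-26a-5p and miR-26b-5p share 1 seed, and so do the let-7 members.
miR-16-5p: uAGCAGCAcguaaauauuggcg
let-7a-5p: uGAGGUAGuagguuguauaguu
let-7c-5p: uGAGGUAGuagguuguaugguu
miR-136-5p: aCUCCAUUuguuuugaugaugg
miR-26a-5p: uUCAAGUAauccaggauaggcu
miR-26b-5p: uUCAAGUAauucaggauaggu

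Together the 10 genes were strongly bound up to P7 and barely listed in the adult. Their summed level outside miRNA genes was 3247, 2834, 5617 and 5876 RPM from e12.5 to P7, and fell to 28.6 in adult liver (95% interval 26.5 to 30.8, against 3230.1 to 3263 for e12.5). All 10 genes were listed in each library from e12.5 to P7, and 5 in the adult. The 10 genes held 402, 195, 228, 258 and 20 distinct clusters in the same order. These counts are not scaled to depth. All clusters of the libraries, with the lists added and those over miRNA genes included, numbered 231477, 86624, 86419, 124781 and 81194. Igf2 and H19 supplied 83.2%, 73.3%, 81.0% and 93.4% of these reads up to P7, but 10.7% in adult liver. In whole liver, fewer cells of a type, less RNA per cell and less Ago on each RNA cannot be told apart. The log2 ratio of the adult sum to that of e12.5 was -6.83.

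The lists inside the embryonic tables differed more than many stages did. The summed level was 7321 RPM in the first and 1239 in the second list of e12.5. For the e15.5 table the lists gave 4236 and 2320.2, and for e18.5 they gave 6552 and 2045. Over these 6 lists and the P7 library the lowest value was 1239 and the highest 7321, so no order of the stages from e12.5 to P7 can be read from the sums, while the adult value lies below all 7. The lists also differed in their share of reads over miRNA genes, at 34.7% and 63.0% for e12.5 and 45.6% and 69.0% for e18.5.

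**Figure D1:**
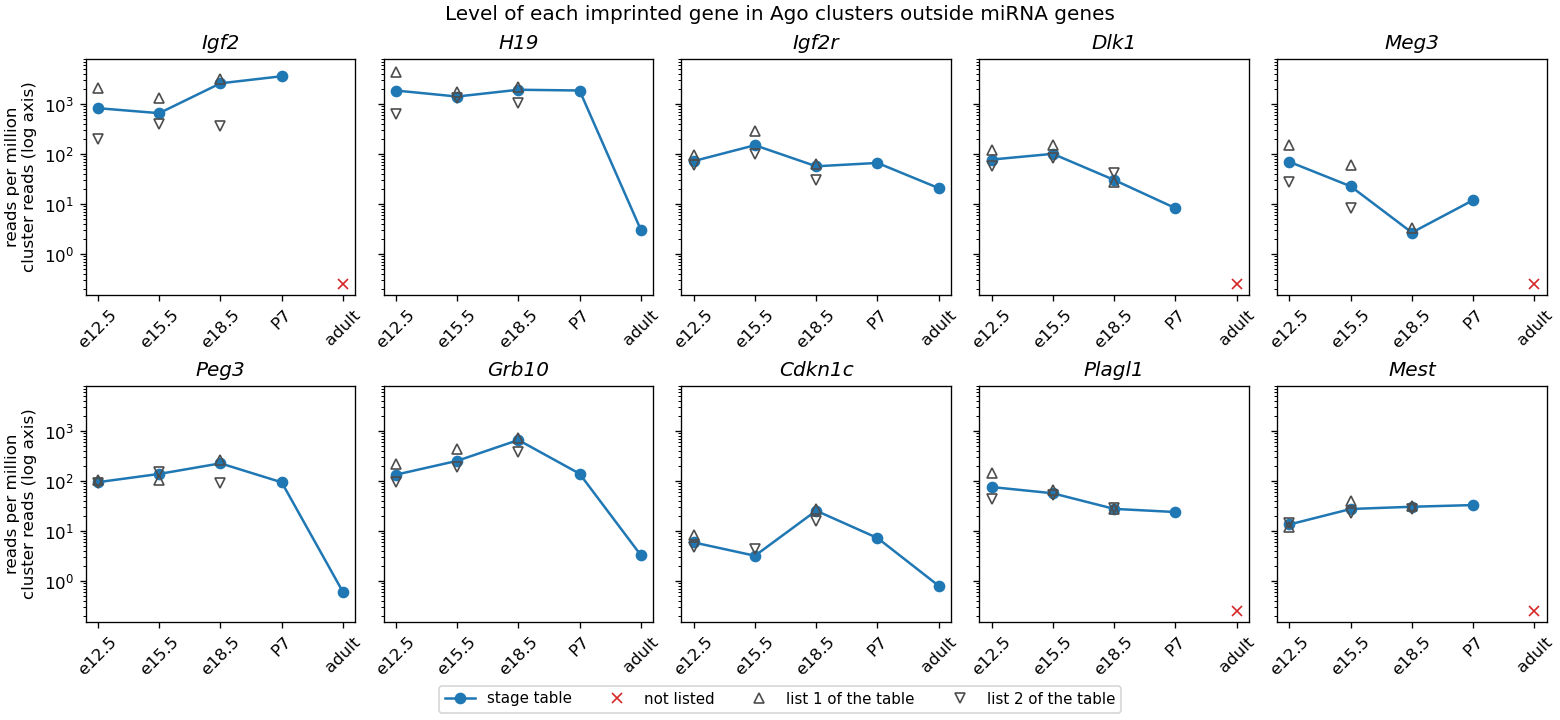
Level of each of the 10 genes in clusters outside miRNA genes, in reads per 1000000 cluster reads on a log axis, by stage; filled points are the stage's table, open triangles the 2 lists of an embryonic table, and red crosses mark genes that are not listed. Igf2, Dlk1, Meg3, Plagl1 and Mest have a cross in the adult, and H19 falls from 1874 at P7 to 3.05 in the adult.

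Between the e12.5 and adult libraries, 5 genes could be compared and 4 of them were at least 4-fold lower in the adult, with 0 at least 4-fold higher. Over all 11420 genes listed in both libraries with at least 20 reads in one of them, 33.5% were at least 4-fold lower and 10.5% at least 4-fold higher. H19 was 613-fold lower, Peg3 158-fold, Grb10 40.7-fold and Cdkn1c 7.38-fold, while Igf2r was 3.48-fold lower and was not called. Igf2r passed the 4-fold threshold with 3′UTR clusters (log2 ratio -2.09), sites of at least 7 matched bases (-2.23) or the first list of e12.5 (-2.20), and stood at -1.01 when scaled to mRNA clusters and at -0.58 when scaled to reads outside miRNA genes, so the members called depend on the setting. The median log2 ratio of these 5 genes was -5.35, against -1.16 over all genes. The other 5 genes, Igf2, Dlk1, Meg3, Plagl1 and Mest, were not listed in the adult outside miRNA genes. All 10 members had at least 20 reads at e12.5, so 5 of 10 were missing from the adult table, against 27.6% of all genes with that many reads. Of all genes with at least 500 reads at e12.5, 8.45% were not listed in the adult, and of the 9 members that reached 500 reads 5 were not. The share of cluster reads over miRNA genes was between 50.5% and 53.7% in the embryo, 70.7% at P7 and 80.0% in the adult, which lowers every other gene on this scale. With the libraries scaled to the reads outside miRNA genes, the median of all genes was 0.05 in place of -1.16, and 42.7% in place of 76.1% of the calls were to the lower side, while 3 members were at least 4-fold lower, Cdkn1c no longer being so.

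Between e18.5 and P7, across birth, 1 of the 10 genes was called lower and 1 higher. Grb10 was 4.72-fold lower at P7 and Meg3 4.46-fold higher, the latter from 35 to 198 reads, and the remaining 8 genes stayed within 4-fold. Of all 11171 genes compared, 16.2% were at least 4-fold lower and 9.91% at least 4-fold higher, so the members' counts lie near these shares. All 10 members were still listed at P7, while 6.96% of all genes with at least 20 reads at e18.5 and 0.0683% of those with at least 500 were not. The median log2 ratio was -0.13 over the 10 genes and -0.53 over all genes. Neither call held in every setting: Grb10 was no longer called when the libraries were scaled to mRNA clusters, to the study's read totals or to the reads outside miRNA genes, and Meg3 was higher by this rule neither with exon clusters alone, nor with the lists joined, nor in the first list of e18.5. With the clusters over miRNA genes kept, the log2 ratio of Meg3 turned from 2.16 to -0.68, and Mest was the gene called higher (2.83). Against the second list of e18.5 alone, Dlk1 was the gene called lower (log2 ratio -2.36) and Igf2 the gene called higher (3.30), while Grb10 stood at -1.44.

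The adult was also compared with P7, where the antibodies were the same, a comparison added after the values were seen. H19 was 614-fold lower in the adult than at P7, Peg3 157-fold, Grb10 42.7-fold, Cdkn1c 9.05-fold and Igf2r 3.19-fold. At least 4-fold lower values were found in 19.3% of 11026 genes and at least 4-fold higher ones in 3.13%, while of the 5 members listed in both libraries 4 were lower and 0 higher. The other 5 were not listed in the adult, namely Igf2 with 59643 reads at P7, Mest with 547, Plagl1 with 397, Meg3 with 198 and Dlk1 with 137. Of all genes with at least 20 reads at P7, 14.8% were not listed in the adult, and this was so for 1.06% of the 1226 genes with at least 500 reads at P7.

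Igf2 (chr7:142650766-142666816, minus strand), the growth factor itself, stood at 829, 659.5, 2610.4 and 3615 RPM from e12.5 to P7 and had no entry in adult liver. Its lists gave 204 and 2099 for the e12.5 table, 409 and 1344 for that of e15.5, and 368 and 3198 for the last embryonic one. The P7 level is thus above every embryonic list, though close to the first list of e18.5, and the embryonic stages overlap each other. Igf2 held 58, 33, 55 and 46 distinct clusters up to P7, with sites for 370, 184, 267 and 417 miRNAs.

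The place where Ago sat on Igf2 differed between the embryo and P7. The 5′UTR, part of which is annotated as intron in other transcripts, held 66.1%, 52.1% and 53.1% of the Igf2 reads in the 3 embryonic libraries, but 7.49% at P7. The 3′UTR held 27.5%, 40.3%, 40.3% and 90.9%. Within the 6 embryonic lists the 3′UTR share lay between 26.1% and 52.1% and the 5′UTR share between 31.2% and 68.8%, so both P7 shares fall outside them. In RPM the 5′UTR stood at 549, 344, 1386 and 271 from e12.5 to P7, and the 3′UTR at 228, 266, 1051 and 3287. The 5′UTR level of P7 lies within the range of the lists, 107 to 1719, and the 3′UTR level of P7 above theirs, 68.2 to 1282.

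**Figure D2:**
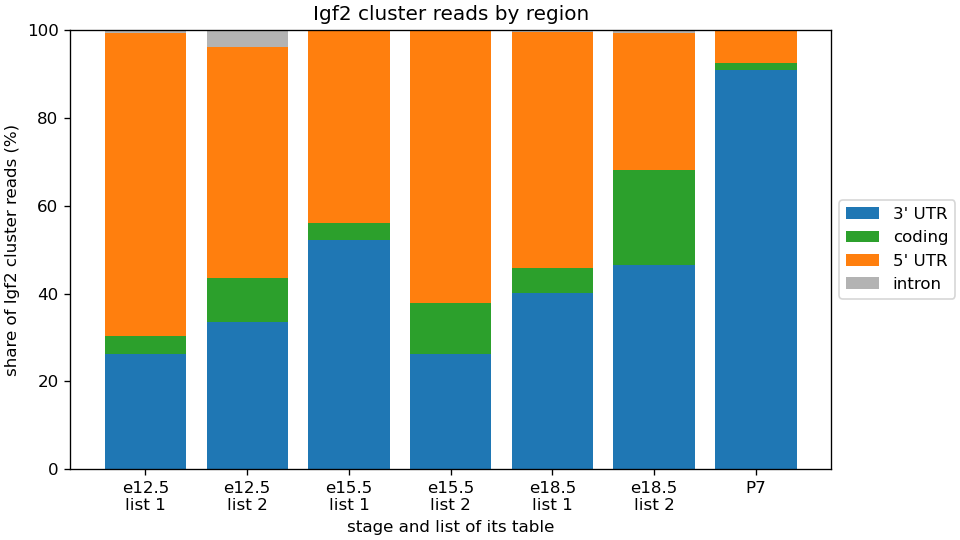
Share of Igf2 cluster reads (%) in the 3′UTR, coding sequence, 5′UTR and introns, for the 2 lists of each embryonic table and for P7; where several regions were given for 1 cluster, the first of 3′UTR, coding, 5′UTR, other exon or intron was taken. The 3′UTR takes 90.9% at P7 and at most 52.1% in an embryonic list.

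A few stretches carried most of this. The 5′UTR stretch at chr7:142659081-142659429 held 21042, 3909, 16811 and 3727 reads from e12.5 to P7, and its miR-16-5p site, an 8mer with a conservation score of 0.945 on a scale from 0 to 1, held 18570, 3240, 13856 and 3615. The reads given for that site were thus most of those of the stretch in all 4 libraries, while miR-16-5p was among the 6 most read miRNAs in each. Reads are not divided among the miRNAs that match a stretch. Here 16 (e15.5) to 39 (P7) miRNAs had a match of at least 7 bases, so the reads cannot be assigned to miR-16-5p. In the adult, where miR-16-5p ranked 2 with 14.0% of the miRNA reads, the site was not listed. The 3′UTR stretch at chr7:142651253-142651379 held 468, 26 and 1656 reads in the embryo and 33213 at P7, which is 55.7% of all Igf2 reads there. Its sites of at least 7 matched bases belonged to rare miRNAs, the most read of them being miR-1983 at P7 with rank 336.

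The neighbouring 3′UTR stretch, chr7:142651403-142651638, held 3110, 2519, 8865 and 17454 reads from e12.5 to P7. It contains the miR-122-5p site shown above, a 7mer-A1 match whose reads were 94 and 140 in the first 2 embryonic libraries and 14697 at P7. The site was not listed at e18.5, where miR-122-5p ranked 4 with 9.20% of miRNA reads, nor in the adult, where it ranked 3 with 11.2%. At P7 miR-122-5p, the miRNA typical of hepatocytes, ranked 1 with 12.3%. The let-7 site of the same stretch has a conservation score of 0.961 and held 366, 683, 1175 and 156 reads. Igf2 also had a let-7 8mer in the 5′UTR, with 167 reads in the e12.5 library, 115 at e18.5 and 50 at P7. A coding match to let-7 had 102 reads at e18.5 and 43 at P7.

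H19 (chr7:142575529-142578143, minus strand), the noncoding RNA, kept a high level up to P7. It stood at 1872, 1419, 1941 and 1874 RPM from e12.5 to P7, and at 3.05 in adult liver, where 76 reads remained in 2 clusters. The e12.5 lists gave 4368 and 642, those of e15.5 gave 1748 and 1298, and the last embryonic ones 2172 and 1058, so the 4 stages do not differ beyond the spread of the lists. Per kilobase of annotated exon H19 had 761 RPM at e12.5 and 762 at P7, against 145 and 632 for Igf2, and each of the other 8 genes was below both of them at these stages.

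Most H19 reads came from the stretch at chr7:142575588-142576108, about 2 kb from the start of the gene, with 54287, 18719, 17586 and 28020 reads up to P7 and 26 in the adult. Its highest cluster alone took 45.5% of the H19 reads at e12.5, where 2 lists were added, and 90.2% at P7, which has 1 list. These shares are not alike, because a cluster belongs to 1 list. The whole stretch held 54287 of 83998 H19 reads at e12.5 and 28020 of 30918 at P7. No miRNA among the 20 most read had a match of at least 7 bases there; miR-181b-5p, the most read one with such a match at e12.5, ranked 33 in that library. In RPM this stretch stood at 1209.95, 1133, 1352 and 1698 up to P7. The miR-136-5p stretch at chr7:142576620-142576744 had 12172, 958, 1635 and 66 reads, or 271, 58.0, 126 and 4.0 RPM, and so lost most of its level at P7, while miR-136-5p itself held 3.11%, 4.53%, 2.89% and 2.40% of the miRNA reads at these stages. A miR-16-5p match at chr7:142576452-142576458, with a conservation score of 0.867, was found in all 5 libraries:
H19 exon, miR-16-5p: acttctcTGCTGCTc
It held 2640, 819, 1401, 1085 and 32 reads from e12.5 to the adult. A match to miR-186-5p, with a conservation score of 0.999, had 812, 563, 225 and 228 reads up to P7, and one to miR-142a-3p, a miRNA of blood cells, had 148, 160, 93 and 270. No site of the let-7 family, of any seed type, was listed in an exon of H19 in any library, although at least 1 let-7 member was among the 20 most read miRNAs of every library.

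**Figure D3:**
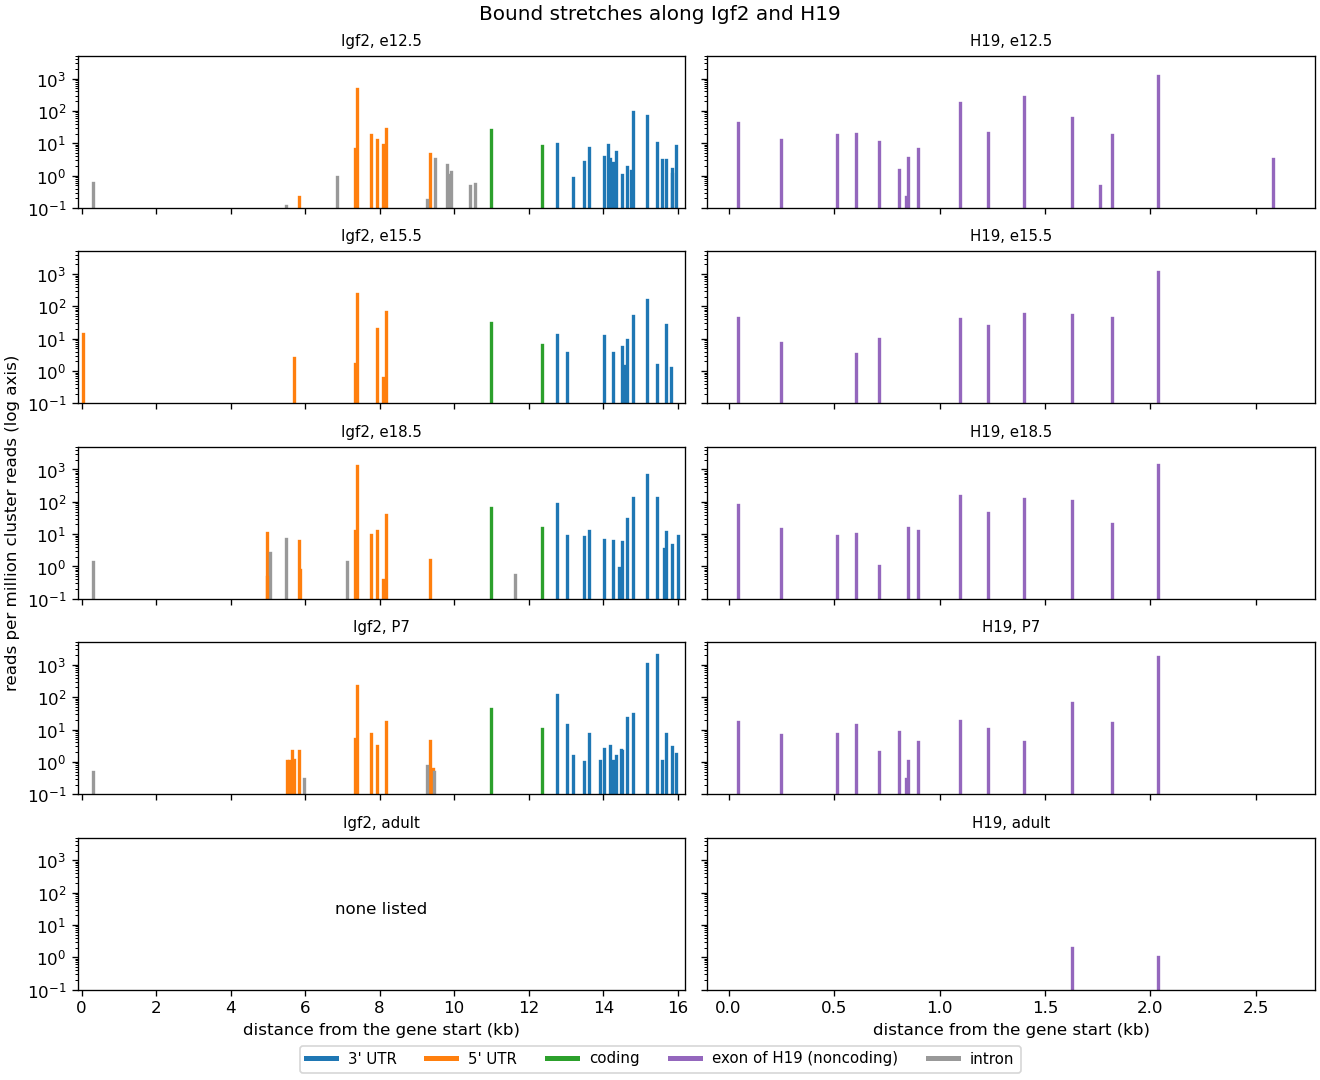
Bound stretches along Igf2 (left) and H19 (right) by distance from the gene start in kb, 1 row per stage, with height in reads per 1000000 cluster reads on a log axis and colour by region. The tallest Igf2 bars lie in the 5′UTR in the embryo and in the 3′UTR at P7, while the tallest H19 bar stays near 2 kb up to P7; the adult has no Igf2 bar and 2 for H19.

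Igf2r (chr17:12682406-12769664, minus strand), which takes IGF2 out of circulation, fell least of the 5 genes that could be compared between e12.5 and the adult. It stood at 72.5, 151, 57.0, 66.6 and 20.9 RPM, with 50, 23, 16, 25 and 13 clusters. The lists spread from 30.7 to 284, so the adult level lies below them by a margin smaller than the spread between lists. Between 64.9% and 89.5% of its reads lay in the coding sequence in each library. Its best covered stretch, chr17:12748754-12748782, was listed at every stage with 330, 776, 151, 555 and 90 reads, and so was a 3′UTR stretch, chr17:12682763-12682785, with an 8mer match to miR-19a-3p and miR-19b-3p and 140, 30, 15, 76 and 30 reads. Another coding stretch, chr17:12722233-12722286, had 81, 259 and 93 reads in the embryo and 18 in the adult and was not listed at P7. A coding match to miR-122-5p at chr17:12726191-12726197 had 60 reads in the adult and between 17 and 88 at e12.5, e15.5 and P7. It is 1 of the 2 sites of abundant miRNAs in the 10 genes that were listed in the adult, beside the miR-16-5p site of H19.

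Grb10 (chr11:11930508-12038683, minus strand), the adaptor of the insulin and IGF receptors, was highest at e18.5. Its level was 134, 254, 665, 141 and 3.30 RPM from e12.5 to the adult. The lists of e18.5 gave 738 and 383 and those of e15.5 gave 431 and 189, so neighbouring stages overlap. The miR-26 site shown above, an 8mer with a conservation score of 0.991, held 372, 464, 1816 and 579 reads up to P7 and was not listed in the adult, where miR-26a-5p ranked 7. An intronic stretch, chr11:12024089-12024116, with an 8mer match to miR-451a, held 805, 1023 and 33 reads in the embryonic libraries, and none was listed later; miR-451a, a miRNA of red blood cells, ranked 3, 5, 7, 47 and 22. The coding stretch at chr11:11945503-11945618 was the one found at all 5 stages, with 189, 118, 557, 61 and 26 reads. A 3′UTR match to miR-30a-5p and miR-30e-5p, with a conservation score of 1, had 90 reads at e18.5 and 33 at P7. The 3′UTR share of Grb10 reads was 37.6%, 36.0%, 65.1% and 66.1% from e12.5 to P7, and the adult reads lay in the coding sequence and an intron.

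Dlk1 (chr12:109452823-109463336, plus strand), a membrane protein of liver progenitors, had 77.7, 101, 30.4 and 8.30 RPM up to P7 and was not listed in the adult. The P7 level is below all 6 embryonic lists, the lowest of which was 27.3. Between 68.2% and 79.0% of its reads lay in the coding sequence. By reads summed over the libraries without scaling to depth, a coding stretch, chr12:109458084-109458201, came first, with 387, 250, 130 and 51 up to P7. Close behind was chr12:109453599-109453722, whose clusters were listed under the 5′UTR as well as the coding sequence, with 303, 351, 97 and 62. A further coding stretch, chr12:109455506-109455607, had 506, 270 and 29 reads in the embryo and led at e12.5. The coding sequence also held a miR-136-5p match at chr12:109455554-109455560 with 334, 96 and 16 reads in the embryo. Meg3 (chr12:109541001-109571726, plus strand), the noncoding RNA of the same domain, had 70.0, 22.7, 2.69 and 12.001 RPM and was not listed in the adult. Of its 67 bound stretches 62 were found in 1 library, against 402 of 612 for the 10 genes together and 77.3% of the stretches of all genes. Among those with the most reads summed over the libraries were an exon stretch, chr12:109546325-109546343, with 206 reads at e15.5 and 5 at e18.5, and an intron stretch, chr12:109548708-109548743, with 151 at e12.5 and 15 at P7. The highest Meg3 cluster of e12.5 lay elsewhere, with 165 reads. In the lists of e12.5 it stood at 156 and 27.8, and in the second list of e18.5 it was not listed.

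Of the remaining genes, the zinc finger protein Peg3 (chr7:6703892-6730431, minus strand) had 95.1, 139, 227, 94.6 and 0.603 RPM, the last from 15 reads in 1 cluster. Its lists lay between 91.1 and 262. A Peg3 stretch counted as 3′UTR, chr7:6711098-6711149, had 416, 208, 1252 and 306 reads up to P7. A coding stretch, chr7:6708930-6708999, had 477, 647, 148 and 41. On the minus strand the former lies 5′ of the latter. Clusters listed under both regions were counted as 3′UTR. At e12.5, 31 Peg3 clusters were listed as coding and 17 were counted there. A miR-136-5p match beside the former stretch, chr7:6711153-6711159, was listed under both regions, so its 3′UTR label does not exclude coding sequence. The Peg3 site of an abundant miRNA with the most reads was a 3′UTR match to miR-194-5p, with 115, 30 and 115 reads in the embryo. Plagl1 (chr10:13060504-13131694, plus strand), another zinc finger protein, had 76.2, 57.1, 27.8 and 24.1 and was not listed in the adult. Its best covered stretches lay in the 3′UTR, chr10:13129978-13130003 with 35, 327 and 138 reads in the embryo and chr10:13129426-13129431 with 367 and 61 in the first 2 libraries and 21 at P7. Cdkn1c (chr7:143458339-143461050, minus strand), the cell cycle inhibitor, had 5.93, 3.21, 25.6, 7.27 and 0.804 RPM, from 20 reads in the adult, and no abundant miRNA had a match of at least 7 bases in its exons. Its best covered stretches were coding, chr7:143459862-143459906 with 31 reads at e12.5 and 163 at e18.5, and chr7:143460011-143460091 with 77, 98 and 18 at e12.5, e18.5 and P7. Mest (chr6:30723547-30748465, plus strand) had 13.6, 27.7, 30.7 and 33.2 and was not listed in the adult outside its miRNA gene. A Mest 5′UTR stretch, chr6:30738226-30738254, had 25, 88, 24 and 139 reads up to P7, and a 3′UTR stretch, chr6:30748108-30748185, had 188 and 22 in the first 2 libraries and 38 at P7. A 3′UTR match of Mest to miR-194-5p had 77 reads at e18.5 and 44 at P7. These 4 genes showed no stretch that was listed at all 5 stages.

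The miRNA genes inside these genes were followed through the read number that each interaction name carries for its miRNA, which the tables do not explain and which was taken as the miRNA's reads. They are Mir483 in Igf2, Mir675 in H19, Mir1906-1 and Mir770 in Meg3, and Mir335 in Mest, and their products are shown because they are the Ago-bound output of the same loci. miR-1906 was not listed in any library.
miR-483-5p (Igf2): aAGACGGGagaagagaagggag
miR-675-3p (H19): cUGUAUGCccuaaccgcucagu
miR-770-3p (Meg3): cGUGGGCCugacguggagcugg
miR-335-5p (Mest): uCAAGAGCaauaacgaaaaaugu

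In reads per 1000000 miRNA reads, miR-483-5p stood at 322, 383, 473 and 436 from e12.5 to P7, and miR-483-3p at 90.03, 121, 145 and 200.4. miR-675-3p stood at 23.2, 22.0, 24.3 and 12.9. miR-675-5p had 8.73, 10.2, 0.514 and 2.32, and rests on 4 reads at e18.5. These miRNAs were not listed in the adult, and neither were the arms of miR-770, which had 21.6, 37.6, 28.7 and 12.4 for the 3p arm and 40.7, 10.7, 32.3 and 3.90 for the 5p arm before. The miR-335 arms were the exception. miR-335-5p had 349, 347, 728 and 1607 up to P7 and was still listed at 64.9 in the adult, and miR-335-3p had 375, 375, 319, 549.8 and 22.0. The adult library thus listed Mest through the 2 clusters over Mir335 alone, with 1963 reads.

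**Figure D4:**
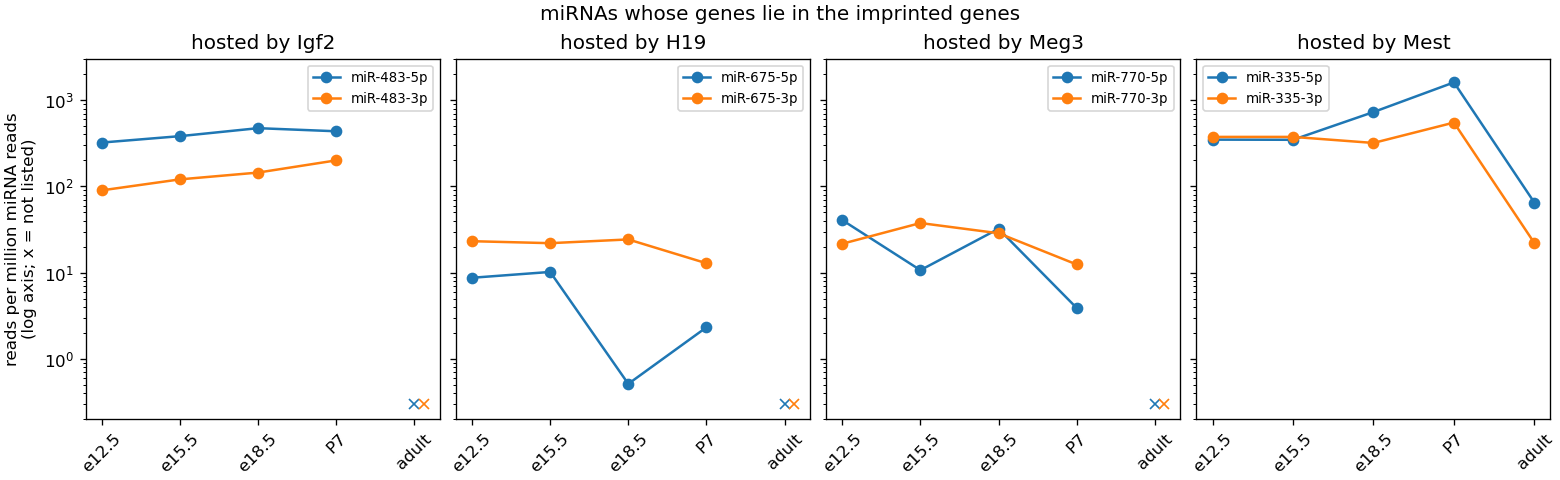
Level of the miRNAs encoded in Igf2, H19, Meg3 and Mest by stage, in reads per 1000000 miRNA reads on a log axis; crosses mark miRNAs that are not listed. The arms of miR-483, miR-675 and miR-770 are crossed out in the adult, and miR-335-5p peaks at 1607 at P7 and remains at 64.9.

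Another pair of miRNAs comes from the domain of Dlk1 and Meg3. miR-127-3p and miR-136-5p lie 21.2 kb and 23.6 kb beyond the annotated end of Meg3, on the same strand. miR-136-5p ranked 5, 3, 5 and 7 up to P7 and 85 in the adult, with 0.0326% of the miRNA reads there. miR-127-3p ranked 13, 7, 11, 20 and 135. Of the 40 sites of abundant miRNAs counted in exons of the 10 genes, 7 in 5 genes (H19, Dlk1, Peg3, Mest and Igf2r) were matches to miR-136-5p and 2 to miR-127-3p, while 10 in 6 genes were matches to miR-16-5p and 5 in 3 genes to the let-7 family. Of the 40 sites, 15 were listed in 1 library and 38 were not listed in the adult. Over the 26054 such sites of all genes, 54.4% were listed in 1 library and 63.8% were not listed in the adult. How these sites divide among single miRNAs was not counted, so the counts per miRNA cannot be set against all genes.

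**Figure D5:**
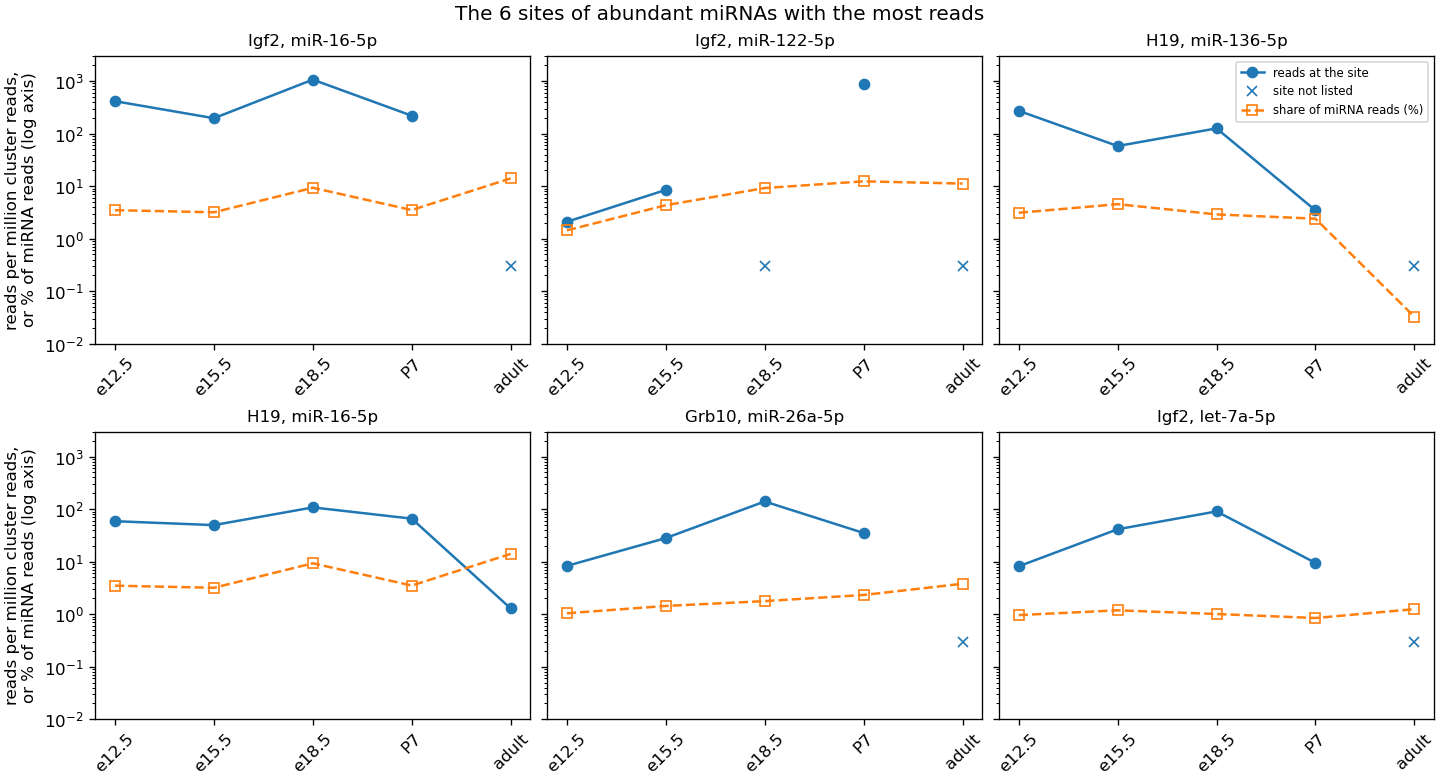
The 6 sites of abundant miRNAs with the most reads in the 10 genes, by stage: filled points are the site's level in reads per 1000000 cluster reads, crosses a site that is not listed, and open squares the miRNA's share of miRNA reads in %, all on a log axis. In Igf2, Grb10 and H19 the sites of miR-16-5p, miR-26a-5p and let-7a-5p are not listed or at their lowest in the adult although the miRNA share there is not below that of e12.5. For miR-136-5p the share falls to 0.0326%.

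In the e12.5 library the share of clusters of the 10 genes listed under a 5′UTR was 10.2% of 512 (lists added) against 3.39% of 164851 over all genes. The shares were 10.7% against 3.61% for e15.5, 13.3% against 4.58% for e18.5, and 10.9% against 4.12% for P7. Igf2 held much of this, with 28 of the 52, 17 of the 25, 28 of the 42 and 18 of the 28 clusters of the 10 genes under a 5′UTR. Without Igf2 the shares were 5.77%, 4.21%, 5.93% and 4.72% from e12.5 to P7, which lowers the distance to all genes at each of these stages; no test was made. Coding shares of the 10 genes were lower, at 30.3%, 37.8%, 35.4%, 40.7% and 55.0% from e12.5 to the adult. Over all genes they were 40.4%, 48.4%, 50.1%, 52.0% and 57.4%. H19 and Meg3 have no coding sequence, and without their clusters the shares were 37.3%, 44.4%, 41.2%, 46.5% and 61.1%, the last from 18 clusters. The shares over all genes still include clusters of noncoding genes, so they are no like measure for these. Counted once where the lists overlapped, Igf2 had 11, 13, 19 and 18 clusters listed under its 5′UTR up to P7. The 28 of e12.5 thus count overlapping clusters more than once, and the part that Igf2 held in the embryonic counts above depends on this. Coding sites of the 10 genes had median conservation scores of 0.585, 0.67, 0.702 and 0.5805 up to P7, against 0.981, 0.984, 0.966 and 0.955 over all genes. Their 3′UTR sites had 0.197, 0.229, 0.0925 and 0.053, against 0.298, 0.52, 0.348 and 0.184. In the adult the 35 coding sites had 0.834 against 0.939, while the 16 sites left in 3′UTRs stood above all genes, at 0.6995 against 0.266. By gene, the median over exon sites was lowest in Meg3 (0.003), Cdkn1c (0.02), H19 (0.03) and Peg3 (0.074), and highest in Mest (0.78), Dlk1 (0.675) and Grb10 (0.668).

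The genes with the most similar course over the 5 libraries were sought for the 5 members listed in all of them, by the summed absolute difference of each library's share of the gene's summed level, over 8367 genes. A gene that is not listed in a library was entered there as 0, which applies in the adult to Myc, Prss8 and Alkbh4. The nearest genes were Arhgap23 (0.057), Myc and Dbn1 for H19, Oxct1 (0.0379), Xrn1 and Limd1 for Igf2r, Prss8 (0.0378), Smarcc1 and Alkbh4 for Peg3, Ywhah (0.0608), Tgif1 and Synj2 for Grb10, and Sox4 (0.0758), Lats2 and Tenm4 for Cdkn1c. Each is a likeness over 5 points. Among genes with at least 500 reads, 26.0%, 27.9%, 25.4%, 12.4% and 8.35% had their highest level in the libraries from e12.5 to the adult, in this order. Of the 10 members, 2, 2, 4, 2 and 0 did, and with 10 genes these counts are not read as a difference from all genes.

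Other genes of the IGF pathway did not follow a single course. Of 30 listed genes of that pathway, 23 were in both the e12.5 and adult libraries, 5 were at least 4-fold lower and 4 at least 4-fold higher in the adult, where 33.5% and 10.5% of all genes were. Their median log2 ratio was 0.03, above the -1.16 of all genes. Igf1, the growth factor that the liver secretes after birth, had 60 reads (1.34 RPM) at e12.5 and 3097 (124) in the adult, and Igfbp4, a binding protein, 897 and 2933. The receptor Igf1r had 4445 reads (99.1 RPM) and 43 (1.73), and the kinase Akt2 1762 and 134. Of 51 other imprinted genes, 44 were listed somewhere and 25 in both libraries. Of these 25, 6 were at least 4-fold lower, among them Pon2 and Ano1, and 5 higher, among them the amino acid transporter Slc38a4 (942 and 13734 reads) and Dcn. The median log2 ratio over the 25 was -0.88, which also lies above the -1.16 of all genes. Of the 43 listed at e12.5, 16 with at least 20 reads there were not listed in the adult, and among all genes with that many reads 27.6% were not. The 43 include genes under 20 reads, such as Pon3 with 8 and Slc22a18 with 6, so the 16 are no share to set beside the 27.6%.

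Markers of the cells in the tissue moved over the same stages. All 8 hepatocyte markers were listed in every library, and their summed level rose from 722 RPM at e12.5 to 9611 in the adult. The erythroid markers, of which 7 of 8 were listed up to P7 and 6 in the adult, had between 34508 and 96153 up to P7 and 1632 in the adult. The alpha globin genes Hba-a1 and Hba-a2, which are near-identical copies, carried the same or almost the same reads in each library and may count them double; without Hba-a2 the sum lay between 18266 and 52178 up to P7 and was 883 in the adult. The hepatoblast markers Afp and Dlk1, the latter a member here, had 634, 1642, 1015 and 805 up to P7 and were not listed in the adult. The 7 mesenchymal markers had 79.4, 70.4, 126, 219.5 and 36.5, the 5 endothelial markers 25.2, 36.0, 77.9, 220.3 and 167, and the 6 leukocyte markers 65.4, 147, 397, 155 and 79.8. Their part in the levels of the 10 genes was not tested.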

How the data were processed

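The authors preprocessed the reads, mapped them with Bowtie to mm10, grouped overlapping reads into clusters and scanned these for miRNA seeds; the submitters' processing notes also name mm9, and versions are not given in the sources used here. The deposited read column is a signal (whole numbers of at least 5, not scaled to library size), the deposited conservation value is a fraction between 0 and 1, and the deposited duplex energies are a score that was not used. Deposited target sequences were checked against GRCm38 at their coordinates. Cluster reads were the highest of a cluster's sites, and the 2 lists of an embryonic table were added for levels and joined where they overlapped for counts of clusters. Clusters over annotated miRNA genes were set apart. A gene was called at a 4-fold ratio with at least 20 reads in 1 of the libraries. The calling code was run on simulated counts with known folds, which checks the code and not the calls made here. No test was possible with 1 table per stage. The 10 genes, the comparison lists and the alternatives were chosen with earlier results of these data known. All 10 genes, the 2 stretches with most reads per gene and those at all 5 stages were described, and of the sites of the 20 most read miRNAs those with the most reads. For this order, and where a stretch is called best covered, reads were summed over the libraries without scaling to depth. Python 3.11.15, pandas 2.3.3, scipy 1.17.1 and matplotlib 3.10.9 were used.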

Additional observations from a re-analysis of the deposited data

How the results depend on the processing

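With 1 table per stage, a change of setting was judged by counts of calls and, for levels, by the counting interval. The number of members at least 4-fold lower in the adult than at e12.5 was 4 and lay within 1.5 times of it under every alternative but 3′UTR clusters alone, which gave 2 of the 2 genes left to compare; 0 members were higher in any. For P7 against e18.5, the 1 member called lower became 0 with the study's library totals (for e18.5 without the replicate it counts apart), 0 with scaling to mRNA clusters and 0 with scaling to reads outside miRNA genes, an alternative added after seeing the data. It became 2 with sites of at least 7 matched bases, 3 with the lists joined at their higher reads and 4 at a 2-fold threshold. The 1 member called higher became 0 with 3′UTR clusters, exon clusters, joined lists or the first list alone. The log2 ratio of the summed level, -6.83, was -6.52 with the study's totals, -6.04 with mRNA clusters, -5.61 with reads outside miRNA genes, -6.30 for 3′UTR clusters, -5.12 with the clusters over miRNA genes kept, -7.38 for sites of at least 7 matched bases, -7.999 in the first list and -5.44 in the second. The 40 sites of abundant miRNAs became 103 with 6mers and 187 for the 100 most read miRNAs. Meg3 reversed between e18.5 and P7, from 2.16 to -0.68, with the clusters over its miRNA genes kept, where the 1 member called higher was Mest. Of the calls over all genes for the adult against e12.5, 76.1% were to the lower side, against 56.4% with mRNA clusters and 91.2% in the first list; for P7 against e18.5 it was 62.1%, against 41.5% with the study's totals, 37.8% with mRNA clusters, 29.7% outside miRNA genes, 82.8% in the first list and 37.3% in the second. The cause of these shifts was not tested. No paired analysis was possible because each stage has 1 table. Clusters under 5 reads and without a seed match are not in the tables, so genes that are not listed have no level.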
